A study of Mus musculus with 12 samples.

Results

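The genes of DNA replication and S phase were examined in Schwann cells that were sorted out of the sciatic nerve on postnatal day 5 (P5). The set comprised 46 genes, chosen by symbol from the machinery that copies the genome, and all 46 were found among the 25700 genes of the count table. Every one passed the filter on low counts, which left 18597 genes for testing, and the lowest count of any of them in any library was 10. The cells came from mice that carried a Cre transgene active in Schwann cells together with ReYFP Tg/+ and βAct-DsRed Tg/+, on the C57bl/6J background. In these mice the Cre switches on eYFP in Schwann cells, and the chicken beta actin promoter drives DsRed in all cells. The allSC gate took all eYFP-positive cells, the mSC gate those of high granularity, enriched in myelinating cells, and the nmSC gate those of low granularity, enriched in cells that were not myelinating at P5. Each gate had 4 libraries, numbered 1 to 4 by mouse, and all 3 gates came from the same genotype and age, so that no untreated or wild type control stood beside them. The gates are enrichments by side scatter and not pure types.

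A cell that enters S phase has first licensed its origins of replication in G1. The origin recognition complex, with Cdc6 and Cdt1, loads the ring-shaped MCM2-7 helicase onto DNA, and the kinases Cdc7 and Cdk2 then turn the loaded ring into an active helicase with Cdc45 and the GINS complex. Primase, the replicative polymerases, the sliding clamp and the ligase copy the strands, and ribonucleotide reductase supplies deoxynucleotides. Behind the fork, chromatin assembly factors restore histones, and other factors restore DNA methylation. In the postnatal nerve, immature Schwann cells divide while axons are being sorted, and cells that start to myelinate leave the cell cycle.

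The libraries held between 8180927 and 16918122 counted reads. Of the Schwann cell markers, Sox10 had a mean of 267 CPM in the mSC gate and 266 CPM in the nmSC gate, where CPM is the count of a gene scaled to a common library size (counts per 1000000) after TMM normalisation of edgeR. Mbp, which encodes myelin basic protein, had a mean of 51943 CPM in mSC and 5647 CPM in nmSC. One library stood apart. The counts of mSC replicate 4 differed from those of the other mSC libraries by a chi-square per degree of freedom of 50.6 to 95.7, against 4.03 to 22.1 for all other pairs within a gate, and counts of members are therefore also given without it.

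The genes of replication were lower in the mSC gate than in the nmSC gate almost throughout. In the quasi-likelihood test of edgeR, at a Benjamini-Hochberg adjusted p under 0.05, 38 of the 46 were lower in mSC, 1 was higher (Gins4) and 7 passed in neither direction. Over all tested genes, 20.1% were lower in mSC and 20.4% were higher by the same rule. At least 2-fold lower, in addition to the test, were 32 members, against 14.0% of all tested genes. For 35 members every mSC library was below every nmSC library, which held for 17.4% of all tested genes, and 39 members were lower in mSC in each of the 4 same-numbered pairs of libraries, as were 27.7% of all tested genes. The members had a median log2 fold change of -1.77, beside -0.16 over all tested genes. In a bulk library, fewer cells in S phase and less RNA of these genes per cell cannot be told apart.

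**Figure D1:**
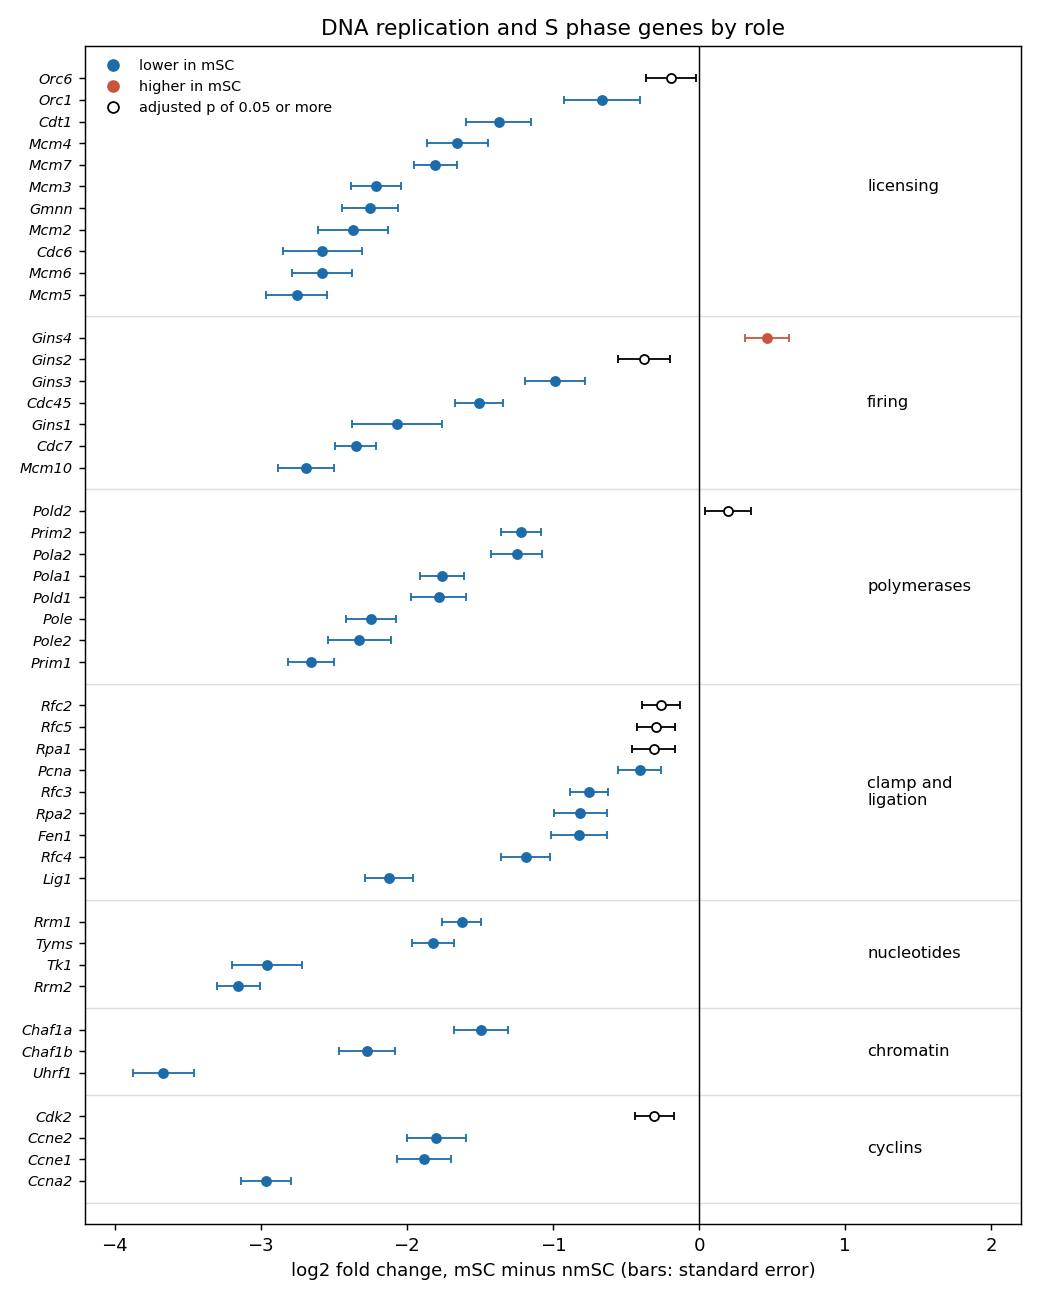
Log2 fold change between the mSC and nmSC gates (horizontal axis, negative where mSC was lower) with its standard error for each of the 46 genes, grouped by role; 4 libraries per gate. The filled blue points are the 38 genes lower in mSC, from -3.67 for Uhrf1 to -0.41 for Pcna, the open points are the 7 genes with an adjusted p of 0.05 or more, and the red point is Gins4 at 0.47, which lay at -0.11 when libraries were scaled by size alone.

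Summed over the 46 genes, the level was between 904 and 946 CPM in the mSC libraries, between 1601 and 1828 CPM in the allSC libraries and between 2208 and 2551 CPM in the nmSC libraries, and the 3 ranges did not overlap. Before any normalisation, the members took between 0.0704% and 0.0799% of the counts of an mSC library, between 0.158% and 0.189% of an allSC library and between 0.260% and 0.310% of an nmSC library. The 2 proliferation markers Mki67 and Top2a, summed, moved the same way, from 35.5 to 57.8 CPM in mSC and from 472 to 608 CPM in nmSC. The scaling of the libraries bears on members near the median. With library size alone, the median over all tested genes was -0.73 and 10392 of 18597 genes were lower in mSC. A change of scaling moves all genes by about the same amount. The members' median relative to all genes (-1.60, and -1.61 under TMM) therefore hardly changes with it and is no check of the scaling. Without mSC replicate 4, 42 members were lower in mSC, with Orc6, Gins2, Rfc2, Rfc5 and Cdk2 added and Orc1 lost. Of all 19369 genes tested in that fit, 3788 were lower.

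Markers of other cells of the nerve were detected in all gates. The summed level of 5 endothelial markers was between 49.04 and 71.2 CPM in mSC and between 13.7 and 21.8 CPM in nmSC, and that of 4 mural markers between 25.8 and 39.1 CPM in mSC and between 10.8 and 11.7 CPM in nmSC. The members of both lists differed in direction. Kdr (mean 20.3 CPM in mSC, 5.88 CPM in nmSC) and Egfl7 (35.6 and 9.25 CPM) made up most of the endothelial sum, whereas Pecam1 (1.25 and 2.45 CPM) and Cdh5 (0.427 and 1.03 CPM) had lower means in mSC. Tagln (24.9 and 4.72 CPM) made up most of the mural sum in mSC, whereas Myh11 (2.13 and 4.47 CPM) and Acta2 (0.830 and 1.09 CPM) had lower means there. The sum of 3 perineurial markers, mostly Cldn1, was lower in mSC, with 8.84 to 15.7 CPM in mSC and 22.3 to 29.8 CPM in nmSC. The ranges overlapped for 5 immune markers (15.8 to 24.4 CPM in mSC, 21.1 to 29.5 CPM in nmSC), for 5 fibroblast markers (13.0 to 44.4 and 13.5 to 19.7 CPM) and for 4 erythroid markers (0.623 to 10.04 and 2.17 to 26.9 CPM). No marker of these lists was at 0 in every library, and their part in the results for the replication genes was not tested.

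The promoters of the members were searched for letters that the choice of genes did not use. E2F factors are the transcription factors that switch on genes for S phase. RefSeq promoter sequences on the GRCm38.p6 build, from 250 bases before to 50 bases after the start of the gene, were matched to 36 of the 46 members, and the other 10 were Gmnn, Mcm4, Gins1, Gins2, Gins4, Prim2, Pole, Rfc2, Ccne2 and Ccna2. Either of the E2F-type words TTTGGCGC and TTTCCCGC, on either strand, was present in 12 of these 36 promoters, 33.3% (exact binomial 95% interval 18.6% to 51.0%), and in 1.80% of the promoters of all 27025 genes in the table, 2.79% of those of the tested genes and 4.34% of those of genes lower in mSC. Before the start alone, the words were in 7 of the 36, or 19.4%, against 1.51% of all promoters. The CCAAT box was found in 61.1% of member promoters (exact binomial 95% interval 43.5% to 76.9%), with both strands searched. It was in 41.1% of all, 42.4% of those of tested genes and 43.5% of those of genes lower in mSC. The GC box GGGCGG was in 77.8% of member promoters (exact binomial 95% interval 60.8% to 89.9%), 38.2% of all, 58.1% of those of tested genes and 56.0% of those of genes lower in mSC. The CHR words TTTGAA and TTCGAA were in 22.2% of member promoters (exact binomial 95% interval 10.1% to 39.2%). They were in 21.7% of all, 18.5% of those of tested genes and 23.3% of those of genes lower in mSC. The 12 promoters were those of Cdc6, Cdt1, Mcm3, Mcm5, Mcm6, Mcm7, Gins3, Pola1, Pold1, Pole2, Rfc3 and Cdk2. Of these genes, 11 were lower in mSC, with a median log2 fold change of -1.79, and of the 24 without such a word 20 were lower, with a median of -1.56. A match describes letters and not a bound site.

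The following windows show the words before the start of 4 members that were among the strongest or are described in what follows, each 50 bases long, 5′ to 3′ on the strand of the gene, with the E2F-type word or its reverse complement in capitals. They lie outside annotated exons, those of Mcm5, Mcm6 and Pola1 before the gene and that of Cdc6 inside an intron of its longer transcripts.
Cdc6: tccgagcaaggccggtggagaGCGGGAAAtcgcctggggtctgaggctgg
Mcm5: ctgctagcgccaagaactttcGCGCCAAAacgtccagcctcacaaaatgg
Mcm6, 47 bases before the start: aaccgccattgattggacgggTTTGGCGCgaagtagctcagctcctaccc
Mcm6, 110 bases before the start: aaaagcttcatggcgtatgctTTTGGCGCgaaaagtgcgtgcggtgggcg
Pola1: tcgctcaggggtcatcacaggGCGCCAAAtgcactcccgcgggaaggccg
The coordinates are, in this order, chr11:98907992-98908041 (plus strand), chr8:75109339-75109388 (plus strand), chr1:128359724-128359773 (minus strand), chr1:128359787-128359836 (minus strand) and chrX:93632265-93632314 (minus strand). The word in Mcm5 and that in Pola1 are on the strand opposite to the gene, as is the one in Cdc6, while both words of Mcm6 are on the strand of the gene and are the same 8 letters.

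Licensing was the first of the 7 roles, with 10 of 11 genes lower in mSC and a median log2 fold change of -2.21. The strongest was Mcm5, a subunit of the MCM2-7 ring (chr8:75109569-75128439 on GRCm38). Its level was 12.5, 10.9, 11.9 and 5.61 CPM in mSC replicates 1 to 4, 48.4, 54.9, 37.5 and 37.2 CPM in allSC and 67.7, 82.7, 69.7 and 59.5 CPM in nmSC. The 3 gates did not overlap, and mSC replicate 4 was the lowest of all 12 libraries. From nmSC to mSC the log2 fold change was -2.75 ± 0.21 (SE), adjusted p = 2.62e-09, which left 14.6% of the mean nmSC level in mSC. The other subunits of the ring had log2 fold changes of -2.58 (Mcm6), -2.37 (Mcm2), -2.21 (Mcm3), -1.80 (Mcm7) and -1.65 (Mcm4), and in each case all mSC libraries lay below all nmSC libraries. The loader Cdc6 had a log2 fold change of -2.58 ± 0.27 (adjusted p = 2.81e-07), on a mean of only 2.09 ± 0.611 CPM (SD, n = 4) in mSC. The loader Cdt1 and its inhibitor geminin (Gmnn), which prevents a second round of licensing, were at -1.37 and -2.25.

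The origin recognition subunits departed from this. Orc6 was the one licensing gene that did not pass the test, with 28.9, 32.0, 29.4 and 49.7 CPM in mSC, 40.1, 37.3, 39.8 and 28.5 CPM in allSC and 44.3, 40.9, 34.9 and 39.2 CPM in nmSC. Its value in mSC replicate 4 was above every nmSC library, and the other 3 mSC libraries were below them all. The log2 fold change was -0.19 ± 0.17 (adjusted p = 0.374), and without mSC replicate 4 it was -0.40 (adjusted p = 0.0250). With library size alone it was -0.78 (adjusted p = 0.000793). Orc1, the largest subunit, passed narrowly at -0.66 ± 0.26 (adjusted p = 0.0483), with 3.87, 3.30, 2.87 and 3.61 CPM in mSC and 8.45, 3.82, 4.55 and 4.94 CPM in nmSC. The gates overlapped, its nmSC replicate 1 was far above the other 3, and without that library the log2 fold change was -0.38 (adjusted p = 0.233). The call was lost under 14 of 21 alternatives, among them both that use DESeq2 and the replicate block.

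Of the 7 genes that turn the loaded ring into a working helicase, 5 were lower in mSC, 1 higher and 1 neither, with a median log2 fold change of -1.505. Mcm10, which helps to open the DNA at the origin, was the lowest of them (chr2:4989714-5012791 on GRCm38). It had 2.17, 2.26, 2.87 and 1.99 CPM in mSC, 12.1, 11.6, 8.85 and 11.2 CPM in allSC and 12.7, 16.8, 16.5 and 14.6 CPM in nmSC. The mSC libraries were far below both other gates, and the highest mSC value was under the lowest allSC value. The log2 fold change was -2.69 ± 0.19 (adjusted p = 1.17e-09). Cdc7, the kinase that phosphorylates the MCM ring, was at -2.35, and Cdc45, part of the active helicase, was at -1.505.

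The 4 subunits of GINS, the third part of the active helicase, did not move together. Gins1 and Gins3 were lower in mSC, at -2.07 ± 0.31 and -0.98 ± 0.20 (adjusted p = 2.3e-05 and 0.000733). Gins2 had 13.0, 16.1, 18.0 and 24.8 CPM in mSC, 19.1, 19.1, 18.6 and 16.1 CPM in allSC and 26.6, 24.1, 23.1 and 19.0 CPM in nmSC, and its log2 fold change, -0.38 ± 0.18, did not pass (adjusted p = 0.0948). mSC replicate 4 lay inside the nmSC range here, and without it the log2 fold change was -0.56 (adjusted p = 0.00614). With library size alone the log2 fold change was -0.96 (adjusted p = 0.000164). Gins4 (chr8:23226616-23237659 on GRCm38) was the one member higher in mSC, with 38.7, 46.4, 45.8 and 61.7 CPM in mSC, 41.2, 33.2, 37.4 and 31.9 CPM in allSC and 33.5, 31.0, 39.2 and 35.3 CPM in nmSC. It was higher in mSC in all 4 same-numbered pairs, but the ranges of the gates overlapped. Its log2 fold change of 0.47 ± 0.15 (adjusted p = 0.0187) was -0.11 with library size alone and 0.10 when the 50 most counted genes were left out of the library size, so its direction rests on the scaling. It did not pass without nmSC replicate 2 (log2 fold change 0.42, adjusted p = 0.0622). Of the exon bases of Gins2, 67.3% are shared with Gse1 on the opposite strand, and the counting is not stated to use strand, so that reads of the pair cannot be told apart.

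**Figure D2:**
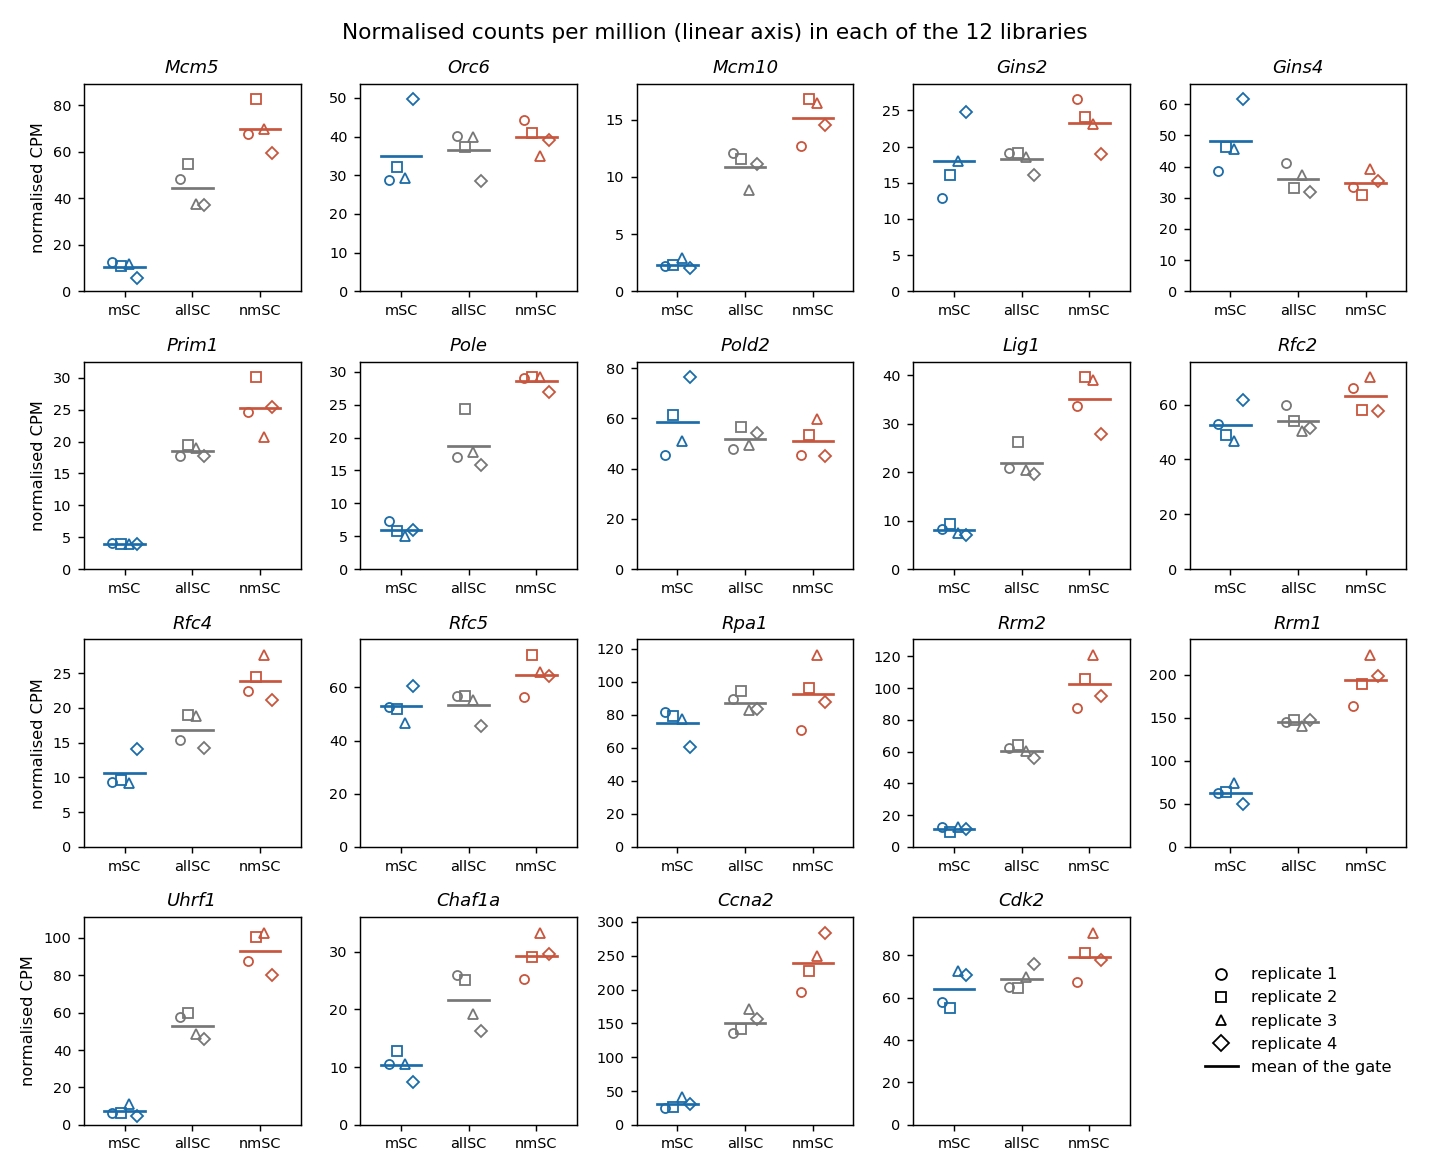
Normalised CPM (vertical axes, linear and starting at 0) of 19 named members in each library of the mSC, allSC and nmSC gates; the symbol gives the replicate number and the line the mean of the gate. Prim1, Rrm2 and Uhrf1 show 3 separate levels, whereas Orc6, Gins2, Pold2, Rfc2, Rfc5, Rpa1 and Cdk2 show overlapping ones. For Orc6, Gins2, Gins4, Pold2 and Rfc4, mSC replicate 4 is above the other mSC libraries.

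Among the 8 polymerase genes, 7 were lower in mSC and the median log2 fold change was -1.77. Prim1, the catalytic subunit of primase, which writes the RNA primers, was the strongest (chr10:128015168-128030037 on GRCm38). Its 4 mSC libraries were nearly the same, at 4.14, 3.99, 3.88 and 3.99 CPM, beside 17.8, 19.5, 19.0 and 17.7 CPM in allSC and 24.6, 30.2, 20.8 and 25.5 CPM in nmSC. No gate overlapped another. The log2 fold change was -2.65 ± 0.16 (adjusted p = 1.06e-10). Its partner Prim2 was at -1.22, and the polymerase alpha subunits that extend the primers were at -1.76 (Pola1) and -1.25 (Pola2).

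Of the leading strand polymerase epsilon, the catalytic subunit Pole and the subunit Pole2 were lower in mSC, at -2.25 ± 0.17 and -2.32 ± 0.22. Its small subunits Pole3 and Pole4 are not members and were at 0.17 ± 0.13 (adjusted p = 0.314) and 0.58 ± 0.19 (adjusted p = 0.0202), but at -0.40 and -0.0089 with library size alone. Pole had 7.26, 5.82, 4.96 and 5.98 CPM in mSC, 17.02, 24.4, 17.8 and 15.9 CPM in allSC and 29.0, 29.2, 29.2 and 26.9 CPM in nmSC, with no overlap between the gates (adjusted p = 2.84e-09). In polymerase delta, which copies the lagging strand, the subunits differed. The catalytic subunit Pold1 was at -1.78 ± 0.19 (adjusted p = 2.29e-07), while the accessory subunit Pold2 had 45.3, 61.2, 51.2 and 76.5 CPM in mSC, 47.8, 56.6, 49.2 and 54.2 CPM in allSC and 45.6, 53.5, 59.7 and 45.0 CPM in nmSC. The gates of Pold2 overlapped throughout, and mSC was lower in 2 of 4 same-numbered pairs. Its log2 fold change of 0.20 ± 0.16 did not pass (adjusted p = 0.319), and it turned to -0.38 (adjusted p = 0.0257) with library size alone.

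The 9 genes of the clamp, its loader, single-strand binding and ligation were the least different group, with 6 lower in mSC, 3 not passing and a median log2 fold change of -0.75. Only Lig1 and Rfc4 were at least 2-fold lower among them. Lig1, the ligase that seals the lagging strand, had 8.34, 9.29, 7.37 and 7.10 CPM in mSC, 20.9, 26.3, 20.5 and 19.7 CPM in allSC and 33.6, 39.7, 39.1 and 27.9 CPM in nmSC. The gates did not overlap, and the log2 fold change was -2.12 ± 0.16 (adjusted p = 3.19e-09). The flap nuclease Fen1 was at -0.82 (adjusted p = 0.00238), with 78.8% of its exon bases under an antisense gene. The sliding clamp itself, Pcna, had 55.3, 62.6, 62.4 and 89.9 CPM in mSC and 94.6, 101, 80.7 and 81.2 CPM in nmSC. The highest mSC library, replicate 4, was above 2 nmSC libraries, and the log2 fold change of -0.41 ± 0.15 passed narrowly (adjusted p = 0.0349). That call was lost under 11 of 21 alternatives, among them both that use DESeq2, and a pseudogene copy of Pcna is listed in the count table beside it.

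The clamp loader, replication factor C, was split. Rfc4 had 9.29, 9.64, 9.23 and 14.1 CPM in mSC, 15.4, 18.9, 18.8 and 14.3 CPM in allSC and 22.4, 24.4, 27.6 and 21.1 CPM in nmSC, with mSC below nmSC throughout, and a difference of -1.19 ± 0.17 on the log2 scale (adjusted p = 1.48e-05). Rfc3 was at -0.75 ± 0.13 (adjusted p = 9.74e-05). Rfc2 did not pass at -0.26 ± 0.13 (adjusted p = 0.111), with 53.0, 48.96, 46.7 and 61.7 CPM in mSC, 59.8, 54.2, 50.4 and 51.5 CPM in allSC and 66.1, 58.2, 70.1 and 57.5 CPM in nmSC. Here only mSC replicate 4 reached into the nmSC range. Rfc5 did not pass either at -0.29 ± 0.13 (adjusted p = 0.0805), with 52.6, 51.8, 46.7 and 60.5 CPM in mSC, 56.6, 56.9, 55.3 and 45.3 CPM in allSC and 56.4, 72.3, 65.8 and 64.3 CPM in nmSC. Without mSC replicate 4 the log2 fold changes of Rfc2 and Rfc5 were -0.34 and -0.35 and both passed (adjusted p = 0.0291 and 0.0256). With library size alone they were -0.83 and -0.86 and passed too (adjusted p = 2.50e-05 for each), so which of these genes pass rests on the scaling. Part of the exon bases of Rfc2 (15.1%), Rfc4 (12.7%) and Rfc5 (10.7%) is shared with Lat2, Eif4a2 and Wsb2 on the opposite strand. Rpa1, the large subunit of the protein that coats single-stranded DNA, had 81.9, 79.3, 77.6 and 60.6 CPM in mSC, 89.4, 94.2, 82.7 and 83.4 CPM in allSC and 71.0, 96.2, 116 and 87.7 CPM in nmSC. The spread of the nmSC libraries covered most of the mSC values, the log2 fold change was -0.31 ± 0.15 and it did not pass (adjusted p = 0.0979). With library size alone the log2 fold change of Rpa1 was -0.86 (adjusted p = 0.000162). Its partner Rpa2 was lower in mSC at -0.81 ± 0.18 (adjusted p = 0.00131). A p over the threshold does not show that the gates are alike, and these standard errors still allow differences about the size of that of Pcna.

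All 4 genes of deoxynucleotide supply were lower in mSC, with a median log2 fold change of -2.39. Rrm2, the small subunit of ribonucleotide reductase, whose level limits the enzyme in S phase, was the strongest (chr12:24708241-24714146 on GRCm38). It had 12.4, 9.55, 12.8 and 11.2 CPM in mSC, 62.1, 64.1, 60.4 and 56.2 CPM in allSC and 87.7, 106, 121 and 95.1 CPM in nmSC, with wide gaps between the gates. The log2 fold change was -3.15 ± 0.15 (adjusted p = 4.14e-12), the smallest adjusted p among the members. Its large subunit Rrm1 had 62.7, 64.2, 74.4 and 49.7 CPM in mSC, 145, 148, 141 and 148 CPM in allSC and 164, 189, 223 and 198 CPM in nmSC. The gates again did not overlap, with a log2 fold change of -1.62 ± 0.14 (adjusted p = 1.02e-08). Thymidine kinase 1 (Tk1), of the salvage pathway, and thymidylate synthase (Tyms), of the synthesis of thymidylate, were at -2.96 ± 0.24 and -1.82 ± 0.14.

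The ratio of the reductase subunits was taken within each library on the scale of RPKM, CPM per kilobase of mean transcript length, as a description of pairs picked after their values were seen. Rrm2 over Rrm1 was 0.303 ± 0.054 (SD, n = 4) in mSC, 0.680 ± 0.040 in allSC and 0.860 ± 0.056 in nmSC. Rrm2b, a small subunit known from resting cells and the response to DNA damage, is not a member but stands in for Rrm2 in the same enzyme. It was higher in mSC, with 38.5, 42.0, 35.1 and 24.9 CPM in mSC, 24.6, 23.3, 23.5 and 31.4 CPM in allSC and 14.4, 17.6, 12.4 and 19.3 CPM in nmSC, at 1.14 ± 0.18 on the log2 scale (adjusted p = 3.88e-05). Per length, Rrm2 over Rrm2b was 0.419 ± 0.114 in mSC, 2.96 ± 0.52 in allSC and 8.24 ± 2.599 in nmSC. In every mSC library the ratio was under 1, from 0.279 to 0.553, and in every nmSC library it was over 6, from 6.06 to 12.01. The length is a plain mean over the annotated transcripts of a gene. The size of a ratio between genes, and its side of 1, rest on that choice, whereas its fold between gates does not.

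The 3 genes of chromatin behind the fork were lower in mSC, with a median log2 fold change of -2.27. Uhrf1, which reads hemimethylated DNA and brings the maintenance methyltransferase to it, had the lowest log2 fold change of all 46 (chr17:56303321-56323486 on GRCm38). Its level was 6.51, 6.42, 11.2 and 4.74 CPM in mSC, 57.9, 59.7, 48.4 and 46.03 CPM in allSC and 87.7, 101, 103 and 79.9 CPM in nmSC. No gate overlapped another. The log2 fold change was -3.67 ± 0.21 (adjusted p = 5.29e-11), which placed it at rank 56 from the lowest of the 18597 genes, and 7.77% of the mean nmSC level was measured in mSC. Chromatin assembly factor 1 places histones on new DNA. Its subunit Chaf1b was at -2.27 ± 0.19, and Chaf1a had 10.6, 12.8, 10.6 and 7.35 CPM in mSC, 25.9, 25.1, 19.2 and 16.2 CPM in allSC and 25.2, 29.1, 33.3 and 29.6 CPM in nmSC. With mSC below both other gates, its log2 fold change was -1.49 ± 0.18 (adjusted p = 2.29e-06). For Chaf1a, 52.5% of the exon bases are shared with Ubxn6 on the opposite strand.

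Of the cyclins and the kinase of S phase, 3 of 4 were lower in mSC, with a median log2 fold change of -1.84. Cyclin A2 (Ccna2), which acts through S phase and into mitosis, had 24.4, 26.1, 41.1 and 31.2 CPM in mSC, 136, 142, 171 and 156 CPM in allSC and 196, 227, 249 and 284 CPM in nmSC. All gates were separate, and the log2 fold change was -2.96 ± 0.17 (adjusted p = 6.37e-11). The E cyclins, which act at the entry into S phase, were lower too, at -1.88 ± 0.19 (Ccne1) and -1.80 ± 0.20 (Ccne2). Part of the exon bases of Ccna2 (12.5%) and Ccne2 (17.4%) is shared with Exosc9 and Ints8 on the opposite strand. Cdk2, the kinase to which cyclins A and E bind, did not pass, with 58.1, 55.0, 72.7 and 70.7 CPM in mSC, 64.9, 64.7, 69.7 and 75.9 CPM in allSC and 67.5, 80.9, 90.7 and 77.7 CPM in nmSC. mSC was the lower gate in each of the 4 same-numbered pairs, but the ranges overlapped and the log2 fold change was -0.31 ± 0.13 (adjusted p = 0.0747). With library size alone the log2 fold change of Cdk2 was -0.87 (adjusted p = 1.31e-05). Per length, Ccna2 over Cdk2, again a pair picked after the values were seen, was 0.632 ± 0.085 (SD, n = 4) in mSC, 2.92 ± 0.24 in allSC and 4.03 ± 0.56 in nmSC.

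Levels per length put the subunits of 4 complexes side by side. In nmSC the 6 MCM genes lay between 35.0 RPKM (Mcm5) and 94.0 RPKM (Mcm7), where the highest was 2.69 times the lowest. In mSC they lay between 5.11 and 26.8 RPKM with the same genes at the ends, and the highest was 5.25 times the lowest. GINS widened most, from a ratio of 3.59 between its highest and lowest gene in nmSC to 17.02 in mSC, where Gins1 was at 2.10 RPKM and Gins4 at 35.7 RPKM. For polymerase alpha with primase the ratio was 1.84 in nmSC and 3.82 in mSC, and for the 4 small subunits of replication factor C it was 1.54 and 2.91. These ratios are values with no test, and their size rests on the mean transcript length of each gene. In nmSC, Mcm5 and Mcm7 had means of 69.9 and 100 CPM, which were divided by lengths of 1998.6 and 1067.6 bases. The ratio of 17.02 also rests on a low gene, since Gins1 had a mean of 1.40 CPM in mSC.

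**Figure D3:**
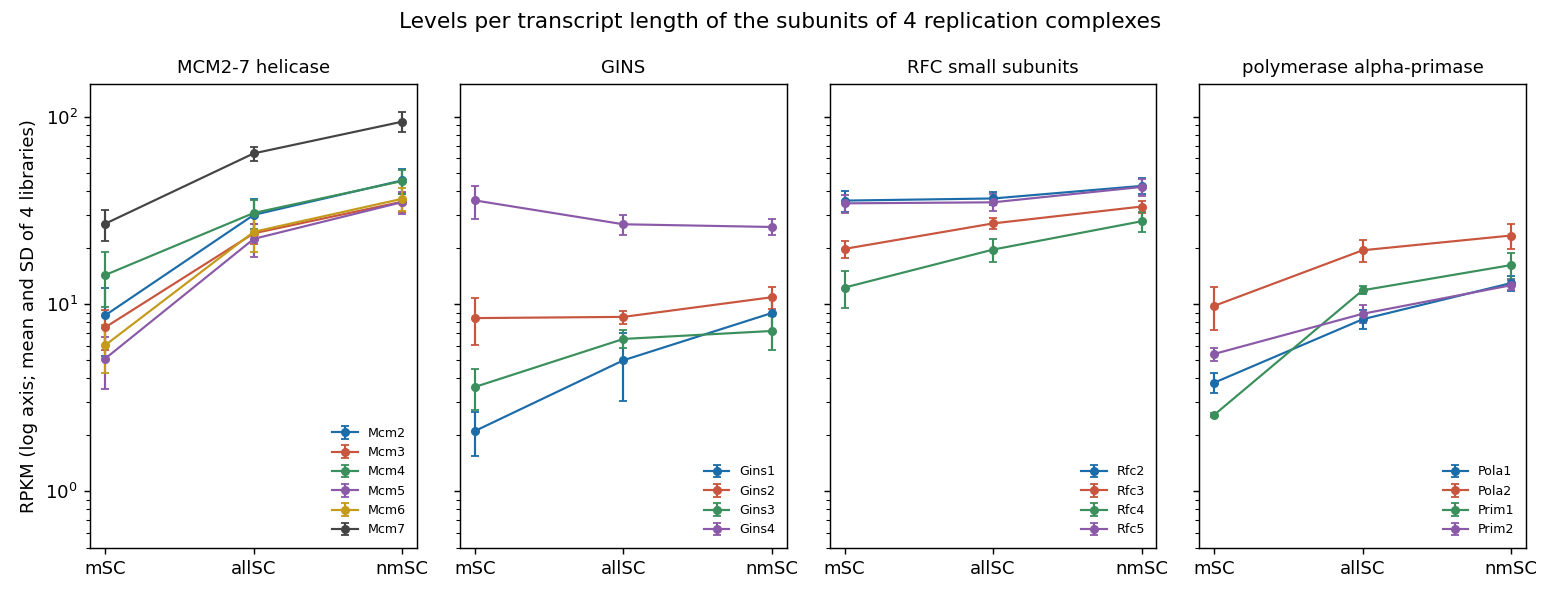
RPKM (vertical axes, log scale) of the subunits of 4 replication complexes in the mSC, allSC and nmSC gates, as mean and SD of 4 libraries. The distance between genes rests on the mean transcript length used for each. In each panel the lines spread apart toward mSC, most for GINS, where the highest gene was 3.59 times the lowest in nmSC and 17.02 times in mSC; the Gins4 line rises toward mSC with the normalisation used, whereas its mSC minus nmSC difference was -0.11 on the log2 scale when libraries were scaled by size alone.

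The allSC gate holds both kinds of cell, and its members lay between the other gates. Against allSC, 34 members were lower in mSC (8.80% of all tested genes were) and none was higher, led by Uhrf1 at a log2 fold change of -2.86 (adjusted p = 6.33e-09), Rrm2 at -2.40 and Ccna2 at -2.30. In nmSC, 18 members were higher than in allSC (2.82% of all tested genes were) and none was lower, with Gmnn at 0.83 (adjusted p = 0.00349), Uhrf1 at 0.81 and Tk1 at 0.80 as the largest. The sign was positive for 44 of the 46. Both comparisons share the allSC libraries, and the comparison of mSC with nmSC shares the others. The count of 18 depended on single libraries, since it was 8 without allSC replicate 3, 9 without allSC replicate 4 and 11 without nmSC replicate 2. Over all tested genes the count fell as well, from 525 to 330, 319 and 373 in the same fits.

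The place of allSC was expressed on the linear CPM scale from 0 at the mSC mean to 1 at the nmSC mean. Over the 38 members lower in mSC its median was 0.559, from 0.310 (Pcna) to 0.812 (Gins3), and 28 of the 38, or 73.7%, were over 0.5. All 3746 genes lower in mSC had a median of 0.545, and 60.9% of them were over 0.5. The side of 0.5 rests on the scaling, since the median of the members was 0.470 with library size alone and 0.504 when the 50 most counted genes were left out of the library size. On the log scale, allSC was above the midpoint of the other gates for 9 members (1.74% of all tested genes were): Uhrf1, Prim1, Mcm10, Rrm2, Ccna2, Mcm5, Mcm6, Pole2 and Cdc7. The largest was Uhrf1 at 1.03 log2 units (adjusted p = 0.000662). A value midway on the linear scale lies above the midpoint on the log scale, the more so the further apart the gates are. The 9 fell to 5 without allSC replicate 2, and the count over all tested genes fell from 323 to 236.

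The libraries of a gate also differed among themselves. mSC replicate 4 was the lowest mSC library for 20 members and the highest for 11. All 6 MCM genes were lowest there, and 5 of the 7 genes that did not pass between the gates were highest there. Its summed level after TMM was nevertheless the highest of the mSC gate, at 946 CPM. Before any normalisation, the members took 0.0704% of its counts, the lowest share of the mSC gate, so this rank rests on the scaling. Among the allSC libraries, replicate 4 was lowest for 27 members, and among the nmSC libraries replicate 4 was lowest for 25, and the labels give these libraries to 1 mouse. Tested over the 3 gates with mouse number as the factor of interest, edgeR's quasi-likelihood test called no member (0.0538% of all tested genes were called). At an unadjusted p under 0.05 there were 7 members, 15.2% of the 46, beside 3.55% of all tested genes, and the same count of 0 was called with 3 other scalings.

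**Figure D4:**
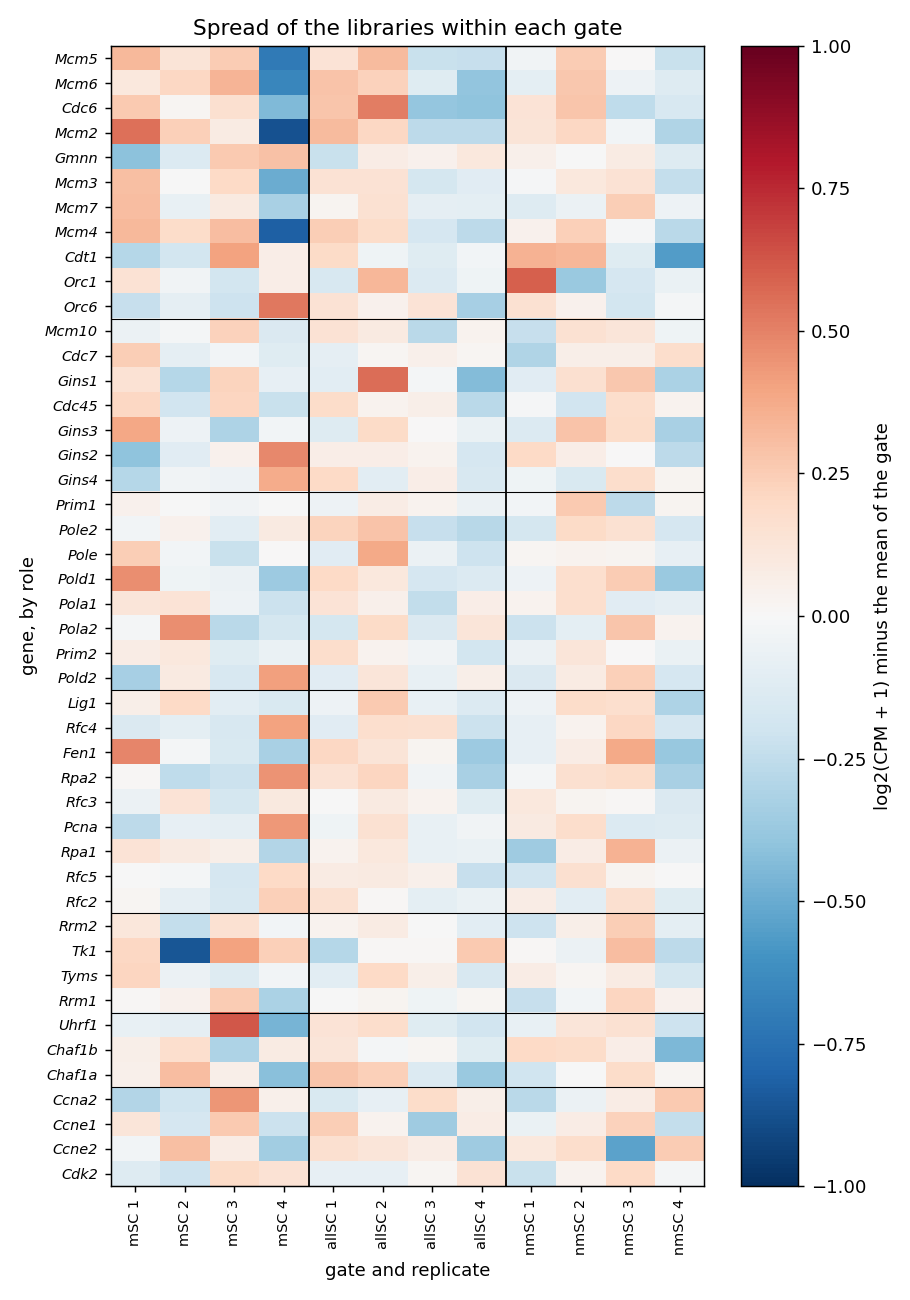
Log2(CPM + 1) of each of the 46 genes in each library minus the mean of its gate (colour, from -1 to 1 log2 unit); rows are ordered by role and by fold change, columns by gate and replicate. mSC replicate 4 shows the 6 MCM genes below the mean of the mSC gate and Orc6, Gins2, Gins4, Pold2, Rfc4, Rpa2 and Pcna above it.

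Another 48 genes of replication, listed by role with earlier results of these data known, give the surroundings of the members. Of these, 27 were lower in mSC, 4 were higher and 17 did not pass, with a median log2 fold change of -0.66. The lowest were Pclaf, a partner of the clamp, with 4.07, 4.77, 6.52 and 10.1 CPM in mSC and 55.0, 56.2, 52.0 and 56.2 CPM in nmSC (-3.14 ± 0.21), the fork checkpoint adaptor Clspn with 2.10, 2.17, 1.71 and 2.37 CPM in mSC and 16.7, 14.6, 16.1 and 13.6 CPM in nmSC (-2.87 ± 0.19), and the histone chaperone Asf1b with 4.54, 5.38, 5.35 and 7.35 CPM in mSC and 30.6, 37.1, 35.6 and 34.7 CPM in nmSC (-2.63 ± 0.16). In each of the 3, every mSC library was below every nmSC library. At the other end, after Rrm2b, stood the small polymerase subunits Pold4 at 0.76 ± 0.28 (adjusted p = 0.0394) and Pole4 at 0.58 ± 0.19 (adjusted p = 0.0202). Pold4 had 6.31, 12.4, 9.70 and 21.8 CPM in mSC and 9.50, 7.05, 7.47 and 5.27 CPM in nmSC and overlapped, while Pole4 had 32.6, 36.6, 32.7 and 55.6 CPM in mSC and 30.8, 29.3, 17.2 and 27.7 CPM in nmSC and did not. The fourth was Rnaseh2c, a subunit of ribonuclease H2, at 0.48 ± 0.18 (adjusted p = 0.0403), whose reads cannot be told apart from those of Kat5 on the opposite strand where they overlap. Of these 4, only Rrm2b also passed with library size alone, at 0.59 (adjusted p = 0.0131), and without mSC replicate 4, at 1.28 (adjusted p = 6.99e-07). With mouse number as a replicate block, Rrm2b and Pole4 passed, whereas Pold4 (adjusted p = 0.0824) and Rnaseh2c (adjusted p = 0.0693) did not. Without mSC replicate 4, Pold4 and Pole4 were both at 0.38 and Rnaseh2c was at 0.23, and with library size alone Pold4 was at 0.16, Pole4 at -0.0089 and Rnaseh2c at -0.11. With Orc6, the remaining origin recognition subunits Orc2, Orc3, Orc4 and Orc5, at 0.06, -0.14, 0.25 and 0.10, did not pass the test, so that of the 6 subunits only Orc1 did, narrowly. With library size alone, Orc2 was at -0.49, Orc3 at -0.69, Orc4 at -0.32 and Orc5 at -0.46, and of these Orc4 alone did not pass.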

How the data were processed

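RNA of eYFP-positive Schwann cells was measured by Smart-Seq2 in 12 libraries, 4 from each gate. Per the submitters' processing notes, reads were demultiplexed with bcl2fastq, aligned with STAR 2.6.1c to GRCm38.p5 and counted on genes with featureCounts, and the authors deposited raw counts without normalization. How strand, overlapping genes and reads with several matches were handled is not given in the sources used here. Smart-Seq2 amplifies cDNA by PCR without molecular identifiers or strand, so floors cover counting error only, and 3 counts correspond to 0.177 to 0.367 CPM. The standard errors of fold changes come from the quasi-likelihood fit, which also takes in the spread between libraries.

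Symbols, positions and lengths came from GENCODE M21, which matched 25664 of 25700 identifiers. From the counts, genes were filtered with filterByExpr by gate, TMM factors were computed, and gates were compared in 1 model over the 12 libraries by the quasi-likelihood test of edgeR 4.0.16 (R 4.3.3), calling genes at a Benjamini-Hochberg adjusted p under 0.05. RPKM is TMM-normalised CPM per kilobase of mean transcript length. That mean weighs all annotated transcripts of a gene alike, so differences in RPKM between genes rest on it. DESeq2 1.42.0 and the other alternatives (library scaling, filters, fits of 2 gates alone, a block on the mouse number, thinning to the smallest library, each library left out) are given at the end. The test was checked on simulated counts with known changes.

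Groups and mouse numbers come from the sample labels, which give same-numbered libraries of the 3 gates to the same mouse. This design pairs them. The correlation of their deviations from the gate means was between -0.225 and 0.246 over the pairs. No 2 libraries of a gate were duplicates. Members and lists were chosen with earlier results of these data known. Values in every library are given, within each of the 7 roles, for the tested members with the lowest and highest log2 fold change, for members with an adjusted p of 0.05 or more, for any higher in mSC, and for any with an outlying library, besides Orc1 and Pcna, which were added after their values were seen. Of the other replication genes, the 3 lowest and the 3 highest are named so. Fold changes of Pole3 and of the origin recognition subunits among them were added after the values were seen. One gene of the myelin marker list is not reported here.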

Additional observations from a re-analysis of the deposited data

Results flagged for a closer look

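In 5 of 138 groups of 4 libraries (46 genes in 3 gates), 1 library lay far from the other 3 by Dixon's criterion, which chance alone gives in about 1 of 20 groups, and all 5 of these libraries carry the mouse number 4. Orc6 was at 49.7 CPM in mSC replicate 4 and at 28.9 to 32.0 CPM in the others. Rfc4 was at 14.1 CPM in the same library and at 9.23 to 9.64 CPM in the others, and its lower level in mSC passed the test with and without that library. Gins2 and Rfc5 were low in allSC replicate 4, at 16.1 CPM beside 18.6 to 19.1 CPM and at 45.3 CPM beside 55.3 to 56.9 CPM. Pole was at 26.9 CPM in nmSC replicate 4 beside 29.0 to 29.2 CPM, a small step within a tight group. What sets these libraries apart was not tested.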

How the results depend on the processing

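Of the 46 members, 36 kept their direction and their side of the threshold between mSC and nmSC under all 21 alternatives. The exceptions were Orc1, Orc6, Gins2, Gins4, Pold2, Pcna, Rfc2, Rfc5, Rpa1 and Cdk2. With library size alone, the members' median was -2.33 and 45 were lower in mSC, with none higher, Gins4 at -0.11 and Pold2 at -0.38. Among the other replication genes, 1 was then higher in mSC, and Pole4 was at -0.0089, Rnaseh2c at -0.11, Orc2 at -0.49, Orc4 at -0.32, Orc5 at -0.46 and Pole3 at -0.40. Nearly all genes shift there (median -0.73). In that setting 38 members were higher in nmSC than in allSC, and the place of allSC was 0.470. Of all 18597 tested genes, 2194 were then higher in nmSC than in allSC, beside 525 under TMM. Without the 50 genes with the most counts, the median was -2.13, none was higher in mSC, Pold2 was at -0.18, Orc2 at -0.30, Orc4 at -0.12, Orc5 at -0.27 and Pole3 at -0.20. There, 1 other replication gene was higher in mSC. In nmSC, 31 members were then higher than in allSC, as were 1224 of all 18597 tested genes. With no filter, the median relative to all genes was -1.45, over 25196 tested genes. The DESeq2 Wald test placed 14 members above the log midpoint, and 388 of all 18597 tested genes. Leaving out 1 library at a time gave 36 to 42 members lower in mSC, 0 or 1 higher, 31 to 34 lower in mSC than in allSC, 8 to 27 higher in nmSC than in allSC, and 5 to 11 above the log midpoint. Over all tested genes it gave 306 to 968 higher in nmSC than in allSC and 225 to 391 above the log midpoint. Of the other replication genes it gave 1 to 4 higher in mSC, with Orc2 between -0.011 and 0.15, below 0 without mSC replicate 2, nmSC replicate 1 or nmSC replicate 2. Fitting only the gates compared, or adding the replicate block, gave 2. With the replicate block on the mouse number, 37 members were lower in mSC and 1 was higher, among the members only the call of Orc1 was lost (adjusted p = 0.0605), and the counts against allSC were 33 and 18. Apart from the shift under library size, the cause of these changes was not tested. The E2F-type words fell to 19.4% of member promoters without the bases after the start. Differences within counting error of the low members, such as Gins1 and Cdc6 in mSC, were not detectable at this depth.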

Other observations

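Further ratios within each library, on the RPKM scale and picked after their values were seen, describe the balance of members with opposed or successive roles, with no test. Their size rests on the transcript lengths used, and their fold between gates does not. Cdt1, the licensing factor, over geminin (Gmnn), its inhibitor, was 0.835 ± 0.119 (SD, n = 4) in mSC, from 0.683 to 0.945, and 0.451 ± 0.1204 in nmSC, from 0.319 to 0.559, so the ranges did not overlap. In allSC it was 0.509 ± 0.117. Cyclin A2 (Ccna2), of S phase and later, over cyclin E1 (Ccne1), of the entry into S phase, was 2.72 ± 0.56 in mSC, 4.96 ± 1.51 in allSC and 5.76 ± 1.51 in nmSC. The ratio of the E cyclins Ccne1 and Ccne2 was 1.47 ± 0.32 in mSC and 1.65 ± 0.72 in nmSC, with overlapping ranges.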
